A study of Mus musculus with 6 samples.

Results

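The genes described are 44 matrix proteases, their inhibitors and closely related factors, taken by gene symbol from a list of names, out of 32028 genes with summed counts. They comprise 13 matrix metalloproteinases (MMPs, 7 secreted and 6 membrane-bound), the 4 tissue inhibitors of metalloproteinases (TIMPs) with the membrane-anchored inhibitor Reck, 11 ADAMTS and 7 ADAM proteases, 3 genes of plasminogen activation, 3 serpins, and the serine proteases Fap and Htra1. Messenger RNA was sequenced in 6 clonal lines of mouse embryonic fibroblasts immortalized with SV40 large T antigen. Embryos carried loxP-flanked Macf1, a gene for a protein that cross-links actin filaments and microtubules. All lines, controls included, had been exposed to a Cre-carrying adeno-associated virus (AAV8) driven by the CMV promoter and were raised from single cells. The labels give the mice of the 3 het clones as Macf1flox/+ and those of the 3 knockout clones as Macf1flox/flox, and by the protocol the clones are Macf1-/+ and Macf1-/- after Cre, which the submitters state they checked by sequencing and western blot. The number of embryos behind the clones, their age and whether the clones arose independently are unknown here. The p-values therefore measure only the spread between these clones, part of which may be technical.

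Fibroblasts both build and degrade the extracellular matrix. MMPs are zinc-dependent enzymes made as inactive precursors that cut collagens, fibronectin and proteoglycans once a propeptide is removed, and TIMPs block their active site. ADAMTS enzymes are secreted relatives that trim procollagens and proteoglycans, and ADAMs are membrane-anchored relatives that release growth factors and receptors from the cell surface. A separate cascade uses the urokinase and tissue-type activators to turn plasminogen into plasmin, and serpins restrain it.

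Estimated counts per library totalled 15661342 to 18209673. Macf1 itself fell from 656 ± 66.6 to 331 ± 27.9 CPM (counts relative to the scaled library size, given as mean ± SD over 3 clones per genotype). The log2 fold change, knockout minus het, was -0.99 (adjusted p = 0.00307 in edgeR's quasi-likelihood test). Its summed level does not by itself check the recombination. Of 11 fibroblast markers, 9 reached 1 CPM in some clone; Lum had no counts, and Thy1 and Dcn stayed below or near that level (Dcn at most 1.02 CPM). The summed level of the fibroblast markers was 9698 to 13235 CPM in het clones and 6007 to 8626 CPM in knockout clones. Col1a1, a defining gene, was at 1229 ± 245 and 7.4 ± 5.75 CPM. It was lower in the knockout clones at an adjusted p under 0.05 (edgeR), as were Col1a2, Col3a1, Pdgfra, Pdgfrb and S100a4. Fn1 and Vim, the most abundant of these markers, were not. Fn1 was at 5774 ± 589 and 4269 ± 294 CPM, and Vim at 2425 ± 350 and 2866 ± 1106 CPM (edgeR adjusted p = 0.121 and 0.612). Macrophage and leukocyte markers summed to 11.9 to 17.1 CPM in het clones and 22.9 to 26.8 CPM in knockout clones, with Adgre1 and Tyrobp at 0 in every clone. Cd14 made up most of the knockout sum and was higher there (7.95 ± 3.44 and 18.9 ± 2.6 CPM, edgeR adjusted p = 0.0257). Of 6 endothelial markers, 1 reached 1 CPM (sums 1.26 to 2.7 and 2.5 to 3.15 CPM), and of 6 epithelial markers only Krt19 did (sums 16 to 56.6 and 0.615 to 0.931 CPM). The part of these differences in the results below was not tested.

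Of the 44 genes, 37 had enough counts to be tested and 16 of them (43.2%) passed an adjusted p of 0.05, against 28.1% of all 12745 genes tested. In the knockout clones 7 were higher (18.9%, against 13.9% of all genes) and 9 lower (24.3%, against 14.2%). The genes higher in the knockout clones were Mmp10, Mmp13, Timp1, Adamts12, Adamts14, Adam9 and Adam15. Those lower were Mmp2, Mmp14, Mmp16, Timp3, Adamts2, Adam19, Serpine2, Serpinf1 and Htra1. In 19 of the 37 genes (51.4%) every knockout clone lay on the same side of all het clones, against 47.5% of all genes tested. The median log2 fold change was -0.28 over the 37 genes and -0.000612 over all genes, and on log2(FPKM + 1), where 24 of the members have values, it was 0.052 over the members and 0.057 over all genes. A filter on low counts favours genes that are high in 1 genotype: 6 tested members cleared it in all 3 clones of only 1 genotype, and 5 of these passed (Mmp10, Mmp13, Adamts12, Adam19 and Serpinf1). Of the 29 that cleared it in all clones of both genotypes, 11 passed. The share over all genes that cleared it in this way was not computed, so these 11 have no like background. Without knockout replicate 2 the count of higher members was 4 of 39 tested. Over all genes 695 of 13227 were higher in that run, against 1771 of 12745 in the main test. The members' median was -0.47 without het replicate 1. Fewer cells making a transcript and less of it per cell cannot be told apart in these pooled extracts.

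**Figure D1:**
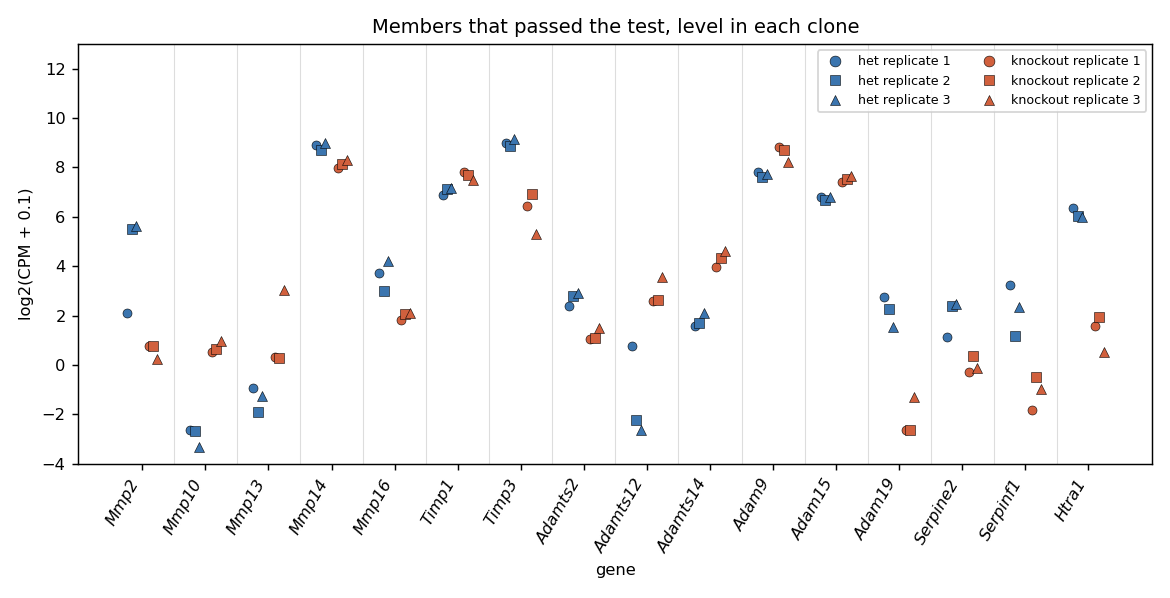
Level of each of the 16 passing genes in each clone, as log2(CPM + 0.1) on the vertical axis, with 3 het clones in blue and 3 knockout clones in orange; each symbol is 1 clone. All 16 show no overlap between the colours, and het replicate 1 stands apart from the other het clones for Mmp2 and Adamts12, as does knockout replicate 3 for Mmp13.

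Among the secreted MMPs the gelatinase gene Mmp2 was lower and the stromelysin and collagenase genes Mmp10 and Mmp13 were higher in the knockout clones. Mmp2 (ENSMUSG00000031740; chromosome 8, 92827291 to 92853420, GRCm38), which encodes gelatinase A, a protease of denatured collagen and basement membrane collagen, measured 4.19, 46 and 49.4 CPM in het replicates 1, 2 and 3. It measured 1.59, 1.6 and 1.09 CPM in knockout replicates 1, 2 and 3. Het replicate 1 was thus far below the other het clones, though still above every knockout clone. Its log2 fold change was -4.54 (SE 0.97, 23.3-fold lower, adjusted p = 0.0199, edgeR). The call ended with limma-voom (adjusted p = 0.187), on log2(FPKM + 1) (0.0591, limma), with no filter on low counts (0.0624, edgeR) and without knockout replicate 1, 2 or 3 (0.0807, 0.0801 and 0.0742, edgeR).

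Mmp10, Mmp13 and Mmp3 lie in a cluster of 10 MMP genes on chromosome 9 (7272514 to 7699585, 427 kb). Only 3 genes of the cluster had enough counts to be tested. Per-clone values of the low genes here were chosen for display after they were seen. Mmp10 (7502352 to 7510240), which encodes a stromelysin of broad specificity, was at 0.0598, 0.0562 and 0 CPM in het clones and at 1.34, 1.48 and 1.86 CPM in knockout clones. It had 2 counts in the het clones together against 82 in the knockout clones, a 39.8-fold ratio with a counting interval of 10.7 to 334 (exact, 95%, counting error only; adjusted p = 0.00223, edgeR). Every knockout clone was thus above every het clone, at a low level. Mmp13 (7272514 to 7283331), the main interstitial collagenase gene of the mouse, was at 0.419, 0.169 and 0.314 CPM in het clones and at 1.16, 1.11 and 8.12 CPM in knockout clones. The groups did not overlap, and knockout replicate 3 was several times above the other knockout clones. This gave a log2 fold change of 3.51 (SE 0.97, edgeR adjusted p = 0.0375), and 1.89 without knockout replicate 3. Its call was lost without het replicate 1, 2 or 3 (adjusted p = 0.0592, 0.117 and 0.101, edgeR) and with limma-voom (0.0946). Mmp3, which encodes another stromelysin, had too few counts for a test (0.539, 0.506 and 2.95 CPM in het clones, 0.183, 0 and 1.6 CPM in knockout clones), and its groups overlapped. Of the other cluster genes, Mmp12, a macrophage elastase gene, was at 2.8 ± 0.428 and 6.15 ± 2.75 CPM and did not pass (adjusted p = 0.0577, edgeR), and the remaining 6 had at most 4 counts in any genotype.

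The promoters of these 3 cluster genes are shown because each holds the letters TGAGTCA, a classical binding sequence of the AP-1 transcription factors, on one of the strands. RefSeq windows (GRCm38.p6) of 300 bases, from 250 before to 50 after a gene's start, were found for 28 of the 44 genes, and those of 5 genes (17.9%) held the motif on either strand: Mmp3, Mmp10, Mmp13, Plaur and Adam19. Of all 32851 windows 5.2% held it, and of all genes with a window 5.95%. These shares were not tested against each other, and 3 of the 5 genes are neighbours in the same cluster, so they are not separate cases. The 250 bases before the start are printed 5′ to 3′ on the plus strand, with the motif in capitals (TGACTCA is the same motif on the other strand). It begins 46 bases before the start in Mmp3, 63 in Mmp10 and 35 in Mmp13. The intervals are chr9:7445572-7445821 for Mmp3, chr9:7502092-7502341 for Mmp10 and chr9:7272264-7272513 for Mmp13.
Mmp3: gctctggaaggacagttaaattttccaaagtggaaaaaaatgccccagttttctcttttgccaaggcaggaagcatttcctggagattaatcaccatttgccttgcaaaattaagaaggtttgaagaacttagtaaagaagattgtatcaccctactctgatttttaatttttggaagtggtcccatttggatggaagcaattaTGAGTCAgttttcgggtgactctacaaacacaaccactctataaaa
Mmp10: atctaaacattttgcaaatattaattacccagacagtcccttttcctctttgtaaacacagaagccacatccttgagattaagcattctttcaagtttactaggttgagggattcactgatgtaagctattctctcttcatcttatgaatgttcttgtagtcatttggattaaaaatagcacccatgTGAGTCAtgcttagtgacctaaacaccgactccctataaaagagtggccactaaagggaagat
Mmp13: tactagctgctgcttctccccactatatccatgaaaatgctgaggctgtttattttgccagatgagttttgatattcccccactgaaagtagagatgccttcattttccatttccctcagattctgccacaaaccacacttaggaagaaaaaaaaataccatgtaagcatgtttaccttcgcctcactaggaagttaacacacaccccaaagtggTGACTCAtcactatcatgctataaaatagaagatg
In Plaur and Adam19 the motif begins 69 and 131 bases before the start, and the 10 bases on either side are given (chr7:24462404-24462430 and chr11:46055843-46055869, plus strand).
Plaur: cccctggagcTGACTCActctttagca
Adam19: gtccttcaccTGAGTCAgcgatgctcc
The 5 genes did not move together: Mmp10 and Mmp13 were higher, Adam19 was lower, Plaur did not pass and Mmp3 was not tested. A match is a description of the letters, and binding was not measured.

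The other secreted MMPs did not pass. Mmp11, a stromelysin-type gene expressed in stromal fibroblasts, was at 42 ± 6.12 CPM in het clones and 37 ± 9.68 CPM in knockout clones, with overlapping groups (adjusted p = 0.547, edgeR). Mmp19 was at 14.5 ± 1.67 and 9.37 ± 3.13 CPM (log2 fold change -0.63, adjusted p = 0.107), and passed without knockout replicate 3 (adjusted p = 0.0167, edgeR). Mmp19 shares 789 of 3533 exon bases with Tmem198b on the opposite strand, which was more abundant and also lower in the knockout clones (43.2 and 31 CPM), and no source used here says whether the counting used strand. Mmp9, which encodes gelatinase B, had 9 counts in het and 7 in knockout clones, too few for a test.

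Of the membrane-bound MMPs, which act at the cell surface, 2 of 5 tested were lower (14.2% of all genes were) and none higher (13.9% of all genes). Mmp14 (ENSMUSG00000000957; chromosome 14, 54431612 to 54445364), which encodes the membrane-type protease that cuts fibrillar collagen and activates the Mmp2 precursor, was at 483, 421 and 508 CPM in het replicates 1, 2 and 3. Knockout replicates 1, 2 and 3 stood at 250, 279 and 316 CPM. Each knockout clone lay below each het clone by a clear margin, and the spread within a genotype was small. On the log2 scale the difference was -0.74 (SE 0.13, 1.67-fold lower, adjusted p = 0.00865, edgeR), and without knockout replicate 2 the adjusted p was 0.0502 (edgeR). Mmp16, another membrane-type protease gene, was at 13, 7.98 and 18.6 CPM in het clones and 3.48, 4.06 and 4.19 CPM in knockout clones. The knockout clones were close together and below the het clones, which varied over a wider range. The fitted log2 difference was -1.75 (SE 0.33, edgeR adjusted p = 0.00977) and the call held in all 15 alternatives. More of its counts were assigned to Mmp16-206, annotated as subject to nonsense-mediated decay, than to coding transcripts (53.2% of the het and 54.6% of the knockout level). Mmp16-206 and the coding transcript Mmp16-201 had log2 fold changes of -1.63 and -1.66. Neither passed by itself (adjusted p = 0.0634 and 0.0872, edgeR on transcripts). Mmp16-206 is also the only transcript of Mmp16 with deposited FPKM, so the alternatives on FPKM do not cover the coding transcripts of the gene.

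Mmp15, Mmp17 and Mmp23 did not pass, and Mmp24 was not tested. Mmp15 was at 3.46 ± 2 CPM in het clones and 1.42 ± 0.561 CPM in knockout clones (adjusted p = 0.136, and 0.0234 without het replicate 1, edgeR). For Mmp23, whose product is anchored by its amino-terminal end, the means were 3 ± 2.5 and 0.415 ± 0.163 CPM, with het replicate 1 (0.18 CPM) below every knockout clone and the other het clones above them. Its log2 fold change was -2.82 (adjusted p = 0.0835, edgeR), and it passed without het replicate 1 (-3.38, adjusted p = 0.00265, edgeR) and with DESeq2 (adjusted p = 0.0204). Mmp17, which encodes a lipid-anchored member, was low in both genotypes, with 34 and 49 counts (0.674 ± 0.0157 and 0.908 ± 0.526 CPM, adjusted p = 0.527, edgeR). Mmp24 had 25 counts in het and 24 in knockout clones.

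The inhibitors moved in different directions: Timp3 was lower, Timp1 was higher, and Timp2 and Reck did not pass. Timp3 (ENSMUSG00000020044; chromosome 10, 86300372 to 86349506) encodes the TIMP that binds to the matrix and also inhibits Adam17 and the aggrecan-cutting ADAMTS proteases. It was at 509, 466 and 566 CPM in het replicates 1, 2 and 3 and at 86.6, 120 and 39.3 CPM in knockout replicates 1, 2 and 3. All knockout clones lay far below the het clones, with knockout replicate 3 the lowest. The log2 fold change was -2.65 (SE 0.39, 6.26-fold lower, adjusted p = 0.00534, edgeR), and the call held in all 15 alternatives. Timp3 shares 1733 of 8144 exon bases with Syn3 on the opposite strand, and Syn3 was at only 0.718 CPM in het clones and 0.185 CPM in knockout clones.

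Timp1 (ENSMUSG00000001131; chromosome X, 20870166 to 20874735) encodes a soluble TIMP that inhibits most secreted MMPs but only poorly the Mmp14 protein. It was at 119, 140 and 144 CPM in het clones and 223, 208 and 182 CPM in knockout clones. The groups did not overlap, and the difference was modest in size. Its log2 fold change was 0.60 (SE 0.12, 1.52-fold higher, adjusted p = 0.0117, edgeR), and the call was lost without knockout replicate 2 (adjusted p = 0.0577, edgeR). Timp2, whose product both inhibits MMPs and takes part in activating the Mmp2 precursor on Mmp14, was at 673, 1000.3 and 1140 CPM in het clones and 769, 776 and 767 CPM in knockout clones. The het clones spread around the narrow range of the knockout clones, and the gene did not pass (log2 fold change -0.28 with SE 0.20, edgeR adjusted p = 0.33). Reck, a membrane-anchored inhibitor of several MMPs, was at 10.1 ± 1.21 and 11.2 ± 3.01 CPM (adjusted p = 0.673, edgeR). Timp4 had no counts in any clone, which allows up to 0.0595 CPM over the het and 0.0577 CPM over the knockout group (3 counts, counting error only).

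**Figure D2:**
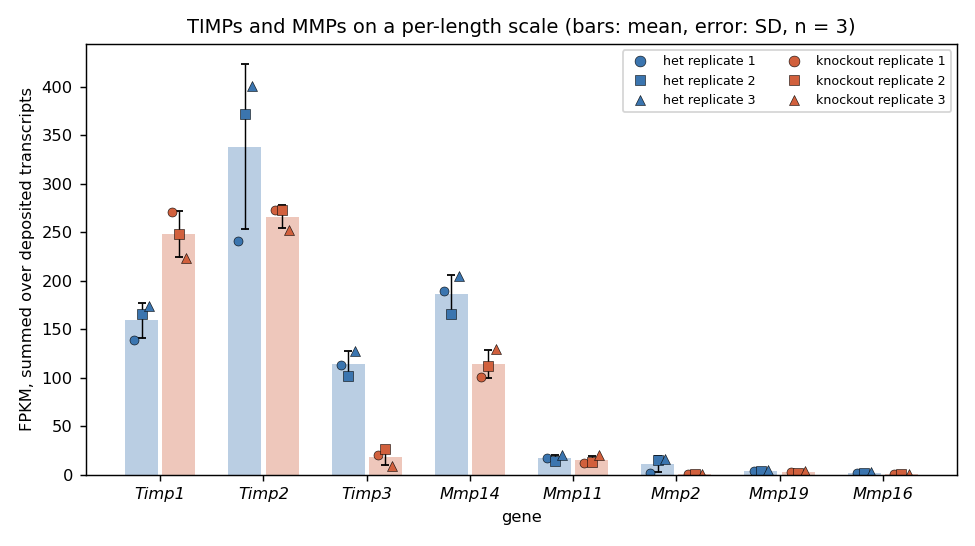
FPKM per gene (vertical axis, summed over the deposited transcripts) of the 3 TIMPs and 5 MMPs with deposited values; bars are means, error bars SD and symbols single clones (n = 3 per genotype, het blue, knockout orange). Timp3 goes from 114 FPKM in het to 18.5 FPKM in knockout clones while Timp1 goes from 159 to 248 FPKM, and Mmp14 is the highest MMP in both genotypes. The values of Mmp16 come from Mmp16-206 alone and hold no coding transcript.

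FPKM, the authors' measure of abundance scaled for transcript length and library size, allows levels of different genes to be set side by side. In het clones the members with the highest FPKM were Timp2 (338 ± 85), Serpinh1 (193 ± 17.1), Mmp14 (187 ± 19.4), Timp1 (159 ± 18.1) and Timp3 (114 ± 12.9 FPKM). Neighbours in this order from Serpinh1 to Timp1 were within or near each other's spread. In knockout clones the order was Timp2 (266 ± 11.8), Timp1 (248 ± 23.6), Serpinh1 (229 ± 37.4), Mmp14 (114 ± 14.4) and Adam9 (102 ± 20.9 FPKM), with the first 3 overlapping, and Timp3 was in position 12 (18.5 ± 8.82 FPKM). Timp1 made up 28.2%, 25.8% and 24.7% of the summed TIMP FPKM in het replicates 1, 2 and 3 and 48.1%, 45.4% and 46.1% in knockout replicates 1, 2 and 3. Timp3 made up 22.9%, 16% and 18.2% in het and 3.53%, 4.85% and 1.88% in knockout clones. Neither share overlapped between the genotypes, while the TIMP sum did (493, 640 and 702 FPKM in het, 564, 548 and 486 FPKM in knockout clones). The summed FPKM of the 5 listed MMPs, of which Mmp14 made up 81.9% to 88.6% in any clone, was 214, 201 and 250 in het and 116, 128 and 155 in knockout clones. TIMP sum over MMP sum was 2.3, 3.18 and 2.81 in het and 4.84, 4.27 and 3.14 in knockout clones, so the groups overlapped. These sums are descriptions without a test.

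Among ADAMTS proteases 9 genes were tested, of which 2 rose, 1 fell and 6 did not pass, so that 33.3% passed, near the 28.1% of all genes. Among these genes, the procollagen N-proteinase genes Adamts14 and Adamts2 moved in opposite directions: Adamts14 was higher and Adamts2 lower in the knockout clones. Both encode enzymes that remove the amino-terminal propeptide of fibrillar procollagens. Adamts14 (ENSMUSG00000059901; chromosome 10, 61197112 to 61273438) was at 2.87, 3.15 and 4.2 CPM in het replicates 1, 2 and 3 and at 15.6, 20 and 24.7 CPM in knockout replicates 1, 2 and 3. Adamts2 (chromosome 11, 50602084 to 50807573) was at 5.15, 6.86 and 7.4 CPM in het clones and 1.95, 2.03 and 2.74 CPM in knockout clones. Neither gene showed any overlap between the genotypes. Adamts14 had a log2 fold change of 2.56 (SE 0.25, 5.89-fold higher, adjusted p = 0.00119, edgeR), and its call held in all 15 alternatives. For Adamts2 it was -1.52 (SE 0.28, edgeR adjusted p = 0.0092), with an adjusted p of 0.0531 without knockout replicate 2 (edgeR).

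Adamts12, which encodes a protease that cuts cartilage oligomeric matrix protein, was at 1.62, 0.112 and 0.0627 CPM in het clones and 5.86, 6.15 and 11.6 CPM in knockout clones. Het replicate 1 was the highest het clone by a wide margin, and knockout replicate 3 the highest knockout clone. This gave a log2 fold change of 3.71 (SE 1.003, edgeR adjusted p = 0.0356), and 6.35 without het replicate 1. The call was lost without het replicate 2 or 3 (adjusted p = 0.089 and 0.0712), without knockout replicate 1, 2 or 3 (0.0886, 0.0942 and 0.0936) and with no filter on low counts (0.0742, all edgeR).

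Adamts1, which encodes a protease of versican and aggrecan, was the most abundant ADAMTS gene by FPKM in both genotypes (91.9 ± 31.7 and 53.4 ± 14.6). It was at 219, 399 and 443 CPM in het clones and 171, 274 and 182 CPM in knockout clones. Het replicate 1 fell within the range of the knockout clones, and the gene did not pass (log2 fold change -0.76 with SE 0.30, edgeR adjusted p = 0.107). It passed without het replicate 1 (-1.02, adjusted p = 0.0174, edgeR), with DESeq2 (0.029) and with local chromosome medians taken out (0.049, edgeR). Its neighbour on chromosome 16, Adamts5, encodes a main aggrecan-cutting protease and was at 27.5, 162 and 114 CPM in het clones and 65.5, 117 and 102 CPM in knockout clones. The het clones spanned the whole range, and the gene did not pass (log2 fold change -0.09 with SE 0.62, edgeR adjusted p = 0.929); its sign turned under 6 of 15 alternatives.

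The remaining ADAMTS genes were lower in abundance. Adamts4, the other main aggrecan-cutting protease gene, was at 13.7 ± 3.06 and 7.92 ± 5.35 CPM, with knockout replicate 3 at 14.1 CPM inside the het range (adjusted p = 0.246, and 0.0146 without that clone, edgeR). Adamts6 and Adamts10, whose products act on fibrillin microfibrils, were at 9.88 ± 4.74 and 14.2 ± 1.74 CPM and at 13.1 ± 3.25 and 9.67 ± 2.66 CPM (adjusted p = 0.274 and 0.272, edgeR). Of the Adamts10 level, 3.5% in het and 24.5% in knockout clones was assigned to the coding transcript, Adamts10-201, which was at 0.451 ± 0.397 and 2.45 ± 0.285 CPM (adjusted p = 0.199, edgeR on transcripts). Adamts6 passed without het replicate 2 (adjusted p = 0.0339, edgeR). Adamts7 was at 2.46 ± 1.87 and 0.814 ± 0.773 CPM (adjusted p = 0.227, edgeR). Adamts9 and Adamts15, whose products cut versican, were not tested, with 28 and 14 counts in het and 8 and 5 counts in knockout clones.

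**Figure D3:**
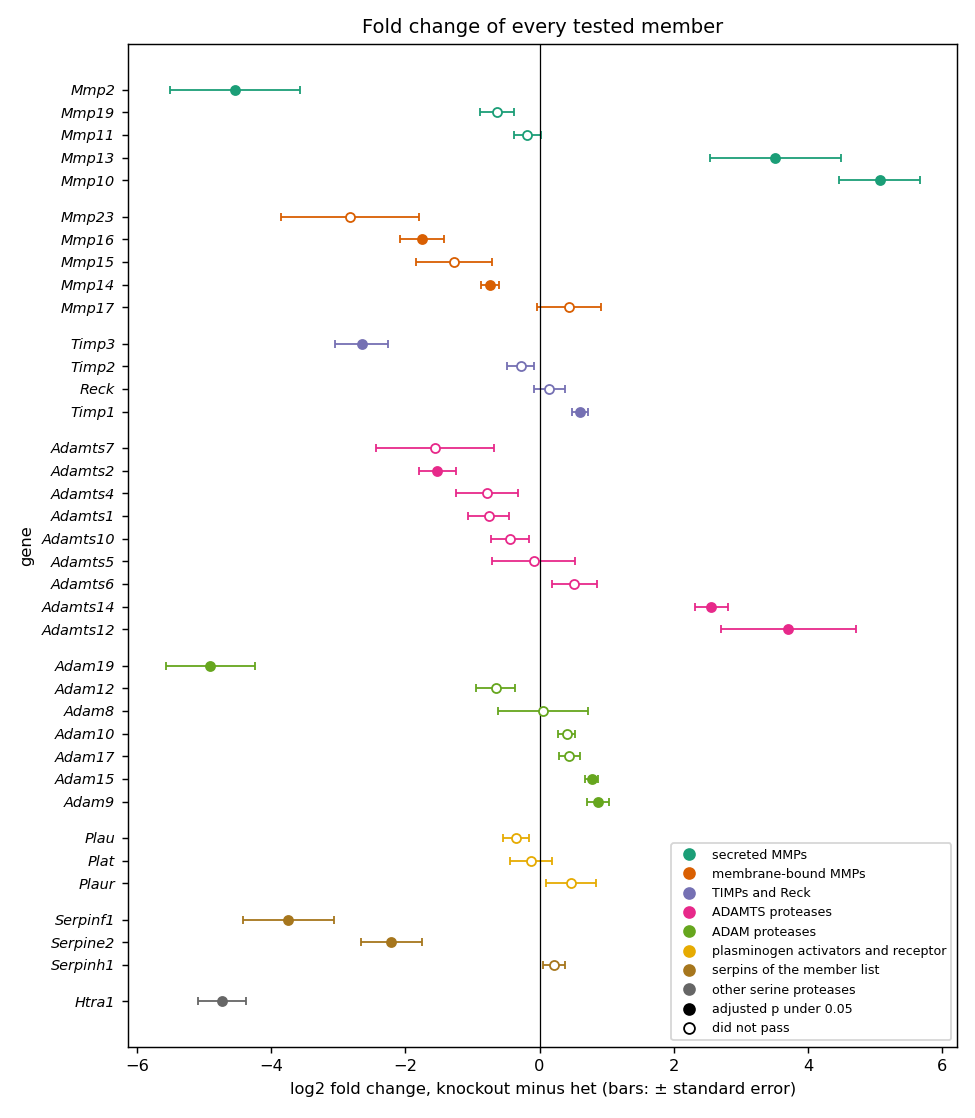
Log2 fold change, knockout minus het (horizontal axis), of the 37 tested genes grouped by role; bars are ± 1 standard error, filled symbols passed an adjusted p of 0.05 and open ones did not. Secreted MMPs, TIMPs, ADAMTS and ADAM proteases each hold filled symbols on both sides of 0, from -4.91 for Adam19 to 5.07 for Mmp10.

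For ADAM proteases, the surface sheddases, 7 genes were tested, of which 2 rose (13.9% of all genes did), 1 fell (14.2% of all genes) and 4 did not pass. Adam9 (ENSMUSG00000031555; chromosome 8, 24949611 to 25016927) was at 225, 196 and 215 CPM in het replicates 1, 2 and 3 and at 451, 418 and 297 CPM in knockout replicates 1, 2 and 3. Adam15 (ENSMUSG00000028041; chromosome 3, 89338542 to 89349996) was at 112, 103 and 113 CPM in het clones and 171, 187 and 204 CPM in knockout clones. All knockout clones were above all het clones for both of these widely expressed genes. Adam9 had a log2 fold change of 0.87 (SE 0.17, 1.83-fold higher, adjusted p = 0.0112, edgeR), and its adjusted p was 0.0503 without het replicate 2 and 0.0554 without knockout replicate 2 (edgeR). For Adam15 it was 0.78 (SE 0.10, 1.72-fold higher, adjusted p = 0.00279, edgeR), and the call held in all 15 alternatives.

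The genes of the best-known sheddases did not pass. Adam10, whose product cleaves Notch receptors and cadherins, was at 109, 147 and 123 CPM in het clones and 171, 178 and 153 CPM in knockout clones. Adam17, whose product releases tumour necrosis factor and ligands of the EGF receptor, was at 70.1, 70.6 and 93.3 CPM in het clones and 92.6, 105 and 121 CPM in knockout clones. The knockout clones were all above the het clones for Adam10, and overlapped with het replicate 3 for Adam17. Log2 fold changes were 0.40 (SE 0.13, adjusted p = 0.0577) and 0.45 (SE 0.15, edgeR adjusted p = 0.0718). Adam10 passed with DESeq2 (adjusted p = 0.0284), on the FPKM scales (0.0425 and 0.0437, limma), without het replicate 2 (0.0412) and with local chromosome medians taken out (0.0489, edgeR). Adam17 passed with DESeq2 (0.0432), on the FPKM scales (0.0432 and 0.0445, limma) and without het replicate 3 (0.0386, edgeR).

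Adam19, which encodes a sheddase of neuregulins, was nearly silent in the knockout clones. It was at 4.73 ± 1.91 CPM in het clones and 0.144 ± 0.144 CPM in knockout clones, with 240 and 8 counts (log2 fold change -4.91 with SE 0.66, edgeR adjusted p = 0.00338). On the log2 scale the difference was -6.11 without knockout replicate 3, and the call held in all 13 alternatives that could be computed. Adam12 was at 3.53 ± 0.88 and 2.25 ± 0.0981 CPM and Adam8 at 18.4 ± 11.7 and 19.1 ± 10.3 CPM (adjusted p = 0.139 and 0.962, edgeR). The sign for Adam8 turned without het replicate 1, without knockout replicate 2 and with local chromosome medians taken out.

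None of the 3 genes of plasminogen activation passed. Plat, which encodes the tissue-type activator, was at 95.3, 164 and 183 CPM in het clones and 96.8, 128 and 180 CPM in knockout clones. Plaur, which encodes the receptor that holds urokinase at the cell surface, was at 68.2, 84.8 and 64.3 CPM in het clones and 145, 108 and 49.3 CPM in knockout clones. The ranges of Plat nearly coincided, whereas knockout replicates 1 and 2 were above and knockout replicate 3 below all het clones for Plaur. Log2 fold changes were -0.13 (SE 0.31, adjusted p = 0.785) for Plat and 0.47 (SE 0.37, edgeR adjusted p = 0.376) for Plaur, which passed without knockout replicate 3 (0.80, adjusted p = 0.0236, edgeR). The sign for Plat turned without het replicate 3 and without knockout replicate 1. Plau, the urokinase gene, was at 40.7 ± 9.56 and 31.9 ± 4.24 CPM (adjusted p = 0.205, edgeR). Plg, which encodes plasminogen, is not among the 44. It belongs to the list of the plasminogen system and other inhibitors counted below, and was chosen for mention after its values were seen. Plg had no counts in any clone.

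Of the 3 serpins, which belong to the family by sequence but differ in function, 2 were lower (14.2% of all genes were) and 1 did not pass. Serpinf1 encodes a secreted serpin that does not inhibit proteases, pigment epithelium-derived factor, and was at 9.34, 2.14 and 5.02 CPM in het clones and 0.183, 0.615 and 0.414 CPM in knockout clones. The groups did not overlap, and the het clones spread over several-fold. The fitted log2 difference was -3.74 (SE 0.68, edgeR adjusted p = 0.00917), and -3.13 without het replicate 1. The coding transcript Serpinf1-201 had a log2 fold change of -4.04 and did not pass by itself (adjusted p = 0.118, edgeR on transcripts). Serpine2, which encodes an inhibitor of thrombin and the plasminogen activators, was at 4.22 ± 1.85 and 0.91 ± 0.229 CPM (log2 fold change -2.21 with SE 0.46, edgeR adjusted p = 0.014). Its adjusted p was 0.0502 without het replicate 2 and 0.0595 without knockout replicate 1 (edgeR). All of its knockout level was assigned to a retained-intron transcript, Serpine2-206, which held 37.3% of the het level and did not pass by itself (adjusted p = 0.339, edgeR on transcripts). Serpinh1, which encodes a collagen chaperone of the endoplasmic reticulum and no inhibitor, was at 447, 367 and 406 CPM in het clones and 519, 519 and 376 CPM in knockout clones. Its groups overlapped (log2 fold change 0.21 with SE 0.16, edgeR adjusted p = 0.356), and its sign turned with local chromosome medians taken out.

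Htra1 had the smallest adjusted p of the 44 genes. It encodes a secreted serine protease that cuts fibronectin and proteoglycans (ENSMUSG00000006205; chromosome 7, 130936111 to 130985660). It was at 82.4, 65.2 and 63 CPM in het replicates 1, 2 and 3 and at 2.87, 3.75 and 1.34 CPM in knockout replicates 1, 2 and 3. All het clones were high and all knockout clones low, with a wide gap between. The log2 fold change was -4.73 (SE 0.36, 26.6-fold lower, adjusted p = 0.000576, edgeR), and the call held in all 15 alternatives. Fgfr2, annotated across the same region on the opposite strand without shared exon bases, was also lower (70 and 20.8 CPM). Fap, which encodes a surface protease of activated fibroblasts, had 7 counts in het and 21 in knockout clones and was not tested.

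Counts were also resolved by transcript, and the transcripts named were chosen after their values were seen. Of 179 transcripts of the 44 genes, 78 from 35 genes were tested, and 6 were higher and 8 lower, against 7.92% of all 34761 transcripts tested that passed. Most of the het level of Htra1 (89.7%) was assigned to Htra1-205, annotated as a processed transcript without a coding sequence, which shares 1500 of its 1606 bases with the coding transcript Htra1-201. In knockout clones Htra1-205 was lower, at 1.93 ± 0.675 CPM beside 61.6 ± 8.51 CPM in het (adjusted p = 0.00118, edgeR on transcripts). Htra1-201 was at 4.41 ± 0.825 CPM in het clones and had no counts in any knockout clone (adjusted p = 0.00874, edgeR on transcripts). Transcripts that share most bases are divided by estimation, so how the level is split between them is uncertain. Another transcript, Htra1-204, was at 1.93 ± 1.03 and 0.762 ± 0.707 CPM and did not pass (adjusted p = 0.375, edgeR on transcripts). Adam9 has a pair of abundant coding transcripts. Adam9-204 rose from 80.6 ± 28.7 to 210 ± 43.2 CPM (log2 fold change 1.38, adjusted p = 0.0386), whereas Adam9-201 was at 127 ± 24 and 191 ± 68.6 CPM (0.59, adjusted p = 0.259, edgeR on transcripts). That these differ from each other was not tested. Both coding transcripts of Timp1 rose, Timp1-201 from 72.9 ± 11.2 to 123 ± 16.1 CPM and the other from 59 ± 3.38 to 87.3 ± 10.4 CPM (adjusted p = 0.039 and 0.0442, edgeR on transcripts). The authors' deposited table lists 49 transcripts of 24 of the genes, of which 5 are positive and 11 negative with an adjusted p under 0.05, against 14% of all its transcripts. In the authors' deposited table the transcripts of Timp1 have log2 fold changes of 0.72 (adjusted p = 0.0191) and 0.53 (0.104), so that one of them does not pass there. The authors' deposited table gives Htra1-205 a log2 fold change of -5.05, Timp3-201 of -2.61, Mmp2-201 of -4.51 and Adamts14-201 of 2.64.

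**Figure D4:**
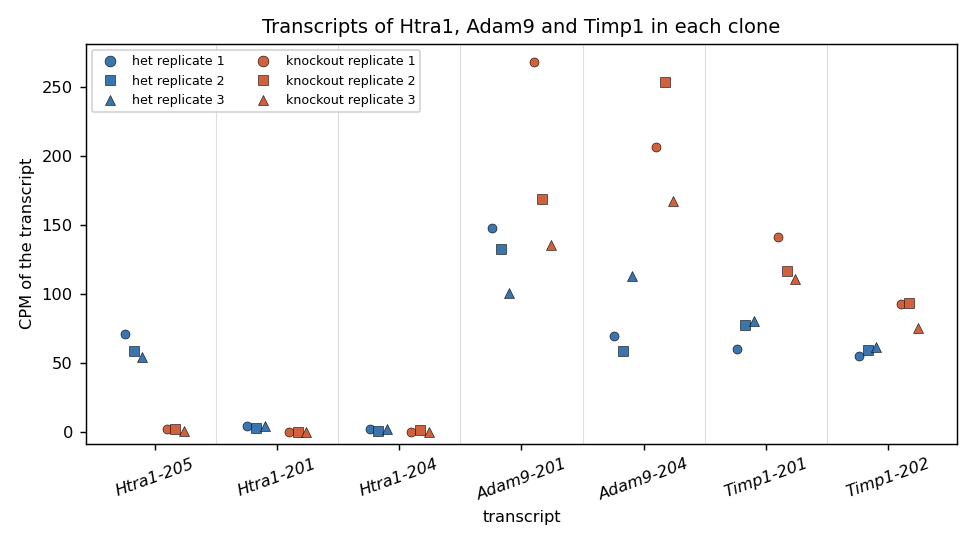
CPM (vertical axis) of single transcripts of Htra1, Adam9 and Timp1 in each clone, het in blue and knockout in orange; each symbol is 1 clone. Htra1-205 lies between 54.5 and 71.1 CPM in het clones and below 2.5 CPM in knockout clones, and the genotypes overlap for Adam9-201 but not for Adam9-204.

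Over whole libraries het replicate 1 stood somewhat apart, with correlations of log2 levels across genes of 0.959 and 0.952 with the other het clones, which had 0.986 with each other. Knockout replicate 3 also stood apart, with 0.978 and 0.985 with the other knockout clones, which had 0.994 with each other. Among the 37 tested genes het replicate 1 was the lowest het clone in 18 (48.6%, against 38.4% of all genes), and het replicate 3 was the highest in 19 (51.4%, against 33% of all genes). Knockout replicate 1 was the lowest knockout clone in 22 (59.5%, against 38.2%) and knockout replicate 3 the highest in 21 (56.8%, against 45.9%). Het replicate 1 stood low for Mmp2, Mmp23, Adamts5 and Adam8, and knockout replicate 3 stood apart for Mmp13, Timp3, Adamts4 and Plaur.

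Other genes of the same pathways were counted as 4 lists. Of 31 further MMP, ADAM and ADAMTS family genes, 10 were tested and 3 were lower, 0 higher (median log2 fold change -0.94). The 3 were low in abundance: Mmp25, a leukocyte-type membrane MMP gene, went from 1 ± 0.272 to 0.133 ± 0.0188 CPM, Adam22 from 3.45 ± 2.38 to 0.677 ± 0.059 CPM and Thsd4 from 1.76 ± 0.491 to 0.694 ± 0.0913 CPM (edgeR adjusted p = 0.00538, 0.0213 and 0.0329).

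The list of the plasminogen system and other inhibitors held 33 genes, including some that are neither, such as Pcolce and Pcolce2. Of the 33 genes 22 were tested, 3 were higher and 5 lower (median -0.19). Thbs1, which encodes the matricellular protein thrombospondin and is among the most abundant, fell from 4856 ± 1457 to 690 ± 299 CPM (adjusted p = 0.00453, edgeR). Spint1, a gene for a Kunitz-type inhibitor, had 234 counts in het and 2 in knockout clones, and Rarres1 84 and 3. In contrast, Serpinb2, a gene for an inhibitor of plasminogen activators, had 3 counts in het and 149 in knockout clones (adjusted p = 0.00283, 0.00666 and 0.00523 for these 3 genes, edgeR).

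Of 24 convertases, procollagen proteinases and other proteases, 14 were tested, 2 were higher and 5 lower (median -0.24). Pappa, which encodes a protease of insulin-like growth factor binding proteins, fell from 55.2 ± 22.9 to 0.468 ± 0.18 CPM, Ece1 from 204 ± 68.7 to 36.5 ± 11.3 CPM and Mme, the neprilysin gene, from 82.2 ± 25.6 to 13.5 ± 7.19 CPM. Furin, which encodes a convertase that activates the Mmp14 precursor and many ADAMs, rose from 78.7 ± 5.4 to 121 ± 9.19 CPM (adjusted p = 0.000458, 0.00352, 0.00646 and 0.0061 in this order, edgeR).

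Of 25 partners and substrates of Adam10 and Adam17, 24 were tested, 1 was higher and 6 lower (median -0.07). Ereg, the epiregulin gene, fell from 41.3 ± 14.5 to 1.17 ± 0.524 CPM, Nrg1 from 45.3 ± 12.9 to 13.7 ± 3.72 CPM and Notch1 from 44 ± 12.3 to 7.9 ± 3.82 CPM. Tspan14, which encodes a tetraspanin partner of Adam10, fell from 30.8 ± 3.94 to 13 ± 0.48 CPM (adjusted p = 0.000773, 0.00542, 0.00523 and 0.00165 in this order, edgeR). The shares of tested genes that passed in the 4 lists were 30%, 36.4%, 50% and 29.2%, beside 28.1% of all genes. Shares higher in the knockout clones were 0%, 13.6%, 14.3% and 4.17%, beside 13.9% of all genes. Shares lower were 30%, 22.7%, 35.7% and 25%, beside 14.2% of all genes.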

How the data were processed

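The authors deposited estimated counts per transcript (96626 transcripts), FPKM values (24799 transcripts) and a comparison with log2 fold changes, log2 mean CPM and p-values per transcript. Per the submitters' processing notes the tools were Trimmomatic 0.36, kallisto 0.42.5 and edgeR, with build GRCm38.p4. A stranded mRNA kit was used, per the labels' protocols. The sign of the authors' deposited log2 fold changes is that of knockout minus het, checked on the deposited FPKM. Transcripts were assigned to genes with GENCODE M21 (95213) or the deposited table (260), and 1153 without a gene were left out. Estimated counts were summed per gene and rounded. After a filter on low values (filterByExpr with minima of 10 per clone and 15 in all) and TMM scaling, edgeR 4.0.16 in R 4.3.3 gave two-sided p-values (robust quasi-likelihood F test), adjusted by Benjamini and Hochberg over the 12745 genes left. Standard errors come from the F statistic. Estimation divides reads shared by similar transcripts. CPM uses TMM-scaled library sizes, and 1 count corresponds to 0.0517 to 0.0627 CPM. No library pair of a genotype matched within counting noise (chi-square over its degrees of freedom 12.6 to 74.4). Alternatives were DESeq2 1.42.0, limma 3.58.1 (voom, and on FPKM with pseudocounts 1 and 0.1), other scalings and filters, local chromosome medians (20 tested genes on either side) taken out, and each clone left out.

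The members, lists and alternatives were chosen with earlier results of these data known. Values by clone are given for passing members reaching 5 CPM in their higher group and for members reaching 50 CPM, and of the other lists up to 4 passing genes with the smallest adjusted p are named.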

Additional observations from a re-analysis of the deposited data

How the results depend on the processing

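Across the 15 alternatives, 8 of the 16 passing members kept their call wherever they could be computed, 8 lost it at least once and none changed direction. Of 21 members that did not pass, 9 passed in at least 1 alternative and 7 changed sign in at least 1. With 1 clone left out, the count of higher members was 4 to 7 and that of lower members 6 to 12, of 37 to 39 tested. Over all genes 695 to 1769 were higher and 871 to 2056 lower in these runs, of 12966 to 13227 tested. In the main test 1771 genes were higher and 1814 lower. The members' median log2 fold change ranged from -0.47 (without het replicate 1) to -0.12 with 1 clone left out. On log2(FPKM + 1) and log2(FPKM + 0.1) 24 members had values, and their median was 0.052 and 0.076. Of these members 6 and 6 were higher (7 among 37 in the main test) and 4 and 5 lower (9 among 37). Over all 10819 genes with FPKM values, 1892 and 1845 were higher and 1368 and 1351 lower. The all-gene median was 0.057 and 0.063 on these scales. Of the members lower in the main test, Adamts2, Adam19, Serpine2 and Serpinf1 had no FPKM values and could not be called there. The same holds for Mmp10, Mmp13 and Adamts12 among the members higher in the main test. Mmp2, Mmp14, Mmp16, Timp3 and Htra1 were lower on log2(FPKM + 0.1). On log2(FPKM + 1) Mmp2 did not pass (adjusted p = 0.0591, limma) and the other members just named did. Macf1 stayed lower in all 15 alternatives (log2 fold change -1.07 to -0.54).

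Sign changes touched only members that did not pass. With 1 clone left out, Adamts5 ranged from -0.54 to 0.42 (0.42 without het replicate 2, 0.01 without het replicate 3, 0.12 without knockout replicate 1), Adam8 from -0.42 to 0.42 (-0.40 without het replicate 1, -0.42 without knockout replicate 2), Plat from -0.40 to 0.060 (0.058 without het replicate 3, 0.060 without knockout replicate 1), Mmp17 from -0.14 (without knockout replicate 3) to 0.73 and Reck from -0.10 (without knockout replicate 3) to 0.28. Adamts5 was 0.21 with limma-voom, 0.19 on log2(FPKM + 1) and 0.24 on log2(FPKM + 0.1). With local chromosome medians taken out, Mmp11 was 0.15, Adam8 -0.10 and Serpinh1 -0.032. The cause of these changes was not tested. Over all genes 3585 passed, and 2227, 1892 and 1566 without het replicate 2, knockout replicate 1 and knockout replicate 2. No paired analysis was possible because the labels give the clones no replicate numbers shared between genotypes. At 15661342 to 18209673 counts a library, 7 members had too few counts for a test.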
